A study of Homo sapiens with 6 samples.

Results

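The Rab GTPases are the largest branch of the Ras superfamily, and the group described here holds every gene symbol made of RAB, a number and at most 1 letter and 1 further digit in the count tables of MDA-MB-231 cells. There were 68 such symbols among 41471 in the CDK16 knockdown table and 64 among 34157 in the rebastinib (Reb) table, and all 64 were among the 68. The pattern also took in 6 symbols that GENCODE lists as pseudogenes, none of which was abundant enough to enter a comparison. In each experiment 47 Rab genes reached a mean of 1 CPM (counts scaled to the library total) and were compared, 46 of them in both experiments, with RAB40A added in the knockdown and RAB17 in the Reb experiment. The other 21 and 17 symbols stayed below that level, with a highest count of 46 and 70 in any library.

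A Rab protein is a switch that is active with GTP bound and inactive with GDP bound. Guanine nucleotide exchange factors (GEFs) turn it on at a chosen membrane, GTPase-activating proteins (GAPs) turn it off, a prenyl anchor holds it there, and GDI carries the inactive form through the cytosol. Each Rab marks a compartment or a transport step and recruits effectors such as tethers and motor adaptors, and RAB27A and RAB27B, which dock secretory vesicles and multivesicular endosomes at the plasma membrane, are known from work on exosome release and invasion of breast cancer cells.

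MDA-MB-231 is an established human cell line of triple-negative breast cancer, that is, a cancer without estrogen receptor, progesterone receptor or amplified HER2. Messenger RNA was sequenced from 6 cultures with 1 library each. For the knockdown, cells carried a lentiviral scramble shRNA (control), CDK16-sh1 or CDK16-sh2 as stable, FACS-sorted lines, where an shRNA is a hairpin that directs the cell's own RNA interference against a transcript, here that of the atypical cyclin-dependent kinase CDK16. For the drug, MDA-MB-231 cells for which no hairpin is named received the vehicle DMSO (control) or Reb, a multi-kinase inhibitor that also inhibits CDK16, at 1 μM or 5 μM for 48 h. Since no condition had a replicate, the differences carry no replicate check, and intervals given with them are exact 95% Clopper-Pearson intervals that cover counting error only. Both hairpins share the scramble library and both doses share the DMSO library, so their values are set side by side. In RNA from whole cultures, fewer cells with a transcript and less of it per cell cannot be told apart.

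The libraries held between 25838443 and 50303269 counts, and mitochondrial genes took from 7.19% of them in the DMSO library to 16.2% in the CDK16-sh2 and 16.4% in the 5 μM library. CDK16 itself had 3223 counts with scramble, 1360 with CDK16-sh1 and 846 with CDK16-sh2. Of the markers of the line, VIM was at 649 RPKM (counts scaled by exon length and library total) with scramble and 352 with DMSO. ESR1, PGR and CDH1 had no more than 53 counts in any library. ERBB2, the gene of HER2, and EPCAM had also been listed as low or absent in this line. With scramble and DMSO, ERBB2 was at 5.06 and 6.54 RPKM and EPCAM at 2.97 and 1.89 RPKM. EPCAM had 240 counts with DMSO and 408 with 5 μM Reb. SPARC, a matrix protein of mesenchymal cells, was at 7.92 RPKM with DMSO but at 0.112 RPKM with scramble, so this marker was close to absent from the hairpin lines.

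In the scramble library the members ranged from 0.155 RPKM for RAB6B to 141 RPKM for RAB7A. Added over the 46 genes compared in both experiments, Rab mRNA came to 888 RPKM with scramble, 939 with CDK16-sh1, 941 with CDK16-sh2, 827 with DMSO, 808 with 1 μM Reb and 964 with 5 μM Reb. The 10 most abundant members of a library held between 72.9% and 81.8% of that sum. They were led by RAB7A, the Rab of late endosomes and lysosomes, with 141, 95.4 and 208 RPKM in the scramble, CDK16-sh1 and CDK16-sh2 libraries, and 203, 201 and 415 RPKM with DMSO, 1 μM and 5 μM Reb. RAB7A was the leading member in 5 of 6 libraries and took 43.1% of the family sum at 5 μM Reb, against 24.6% with DMSO. With CDK16-sh1 the leading member was RAB1B, which drives transport from the endoplasmic reticulum to the Golgi, at 16.3% of the sum, and 42.6% of the exonic bases of RAB1B are shared with genes on the opposite strand.

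Behind RAB7A and RAB1B came RAB13, RAB5C, RAB11B, RAB8A, RAB1A, RAB10, RAB35 and RAB6A by their mean over the libraries, so the abundant members covered secretion from the Golgi, early endosomes and recycling. RAB27B lay at rank 43 of 46, with 1.44, 0.674 and 0.509 RPKM in the scramble, CDK16-sh1 and CDK16-sh2 libraries and 0.503, 0.834 and 0.479 RPKM with DMSO, 1 μM and 5 μM Reb. Its paralog RAB27A was more abundant in every library, at 5.34, 3.76, 3.73, 4.64, 5.43 and 2.91 RPKM in the same order.

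**Figure D1:**
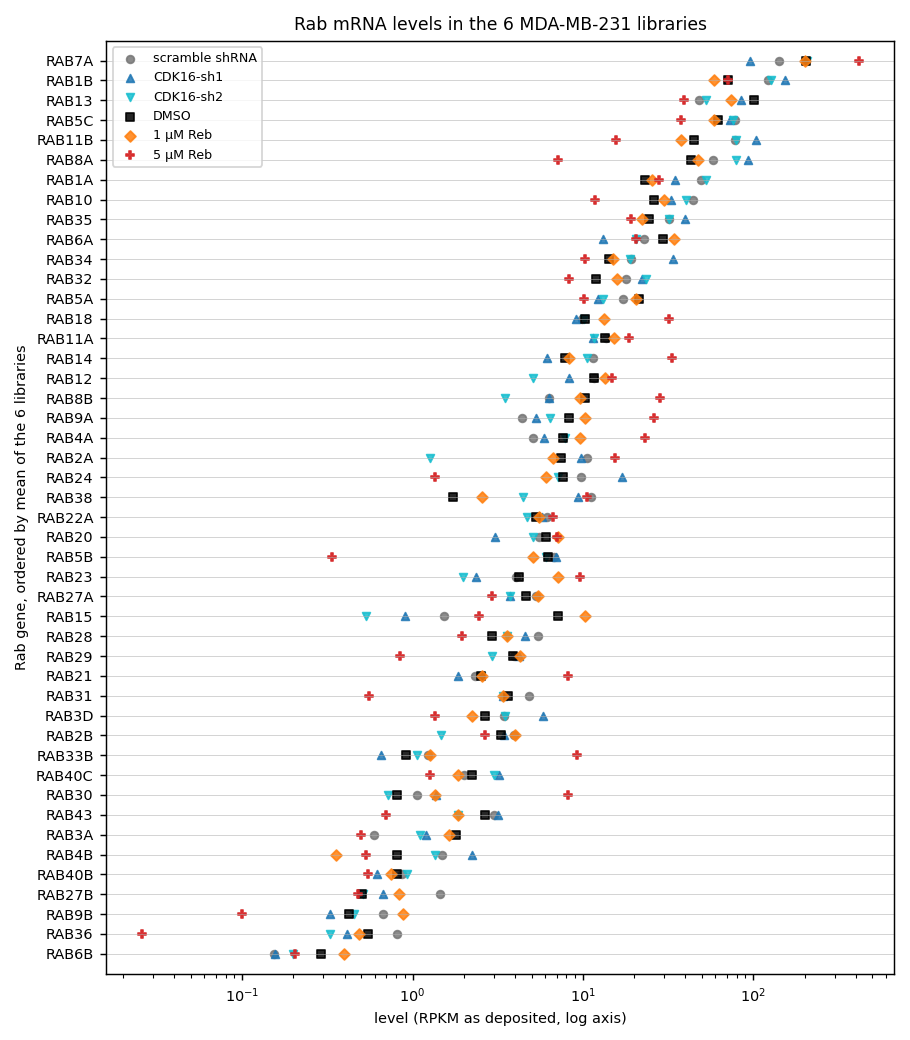
Levels of the 46 Rab genes compared in both experiments, in RPKM as deposited on a log axis, with 1 point for each of the 6 libraries and genes ordered by their mean. RAB7A leads with 95.4 to 415 RPKM over the libraries, while RAB5B, RAB8A and RAB36 sit far to the left of their other points with 5 μM Reb.

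The scramble and DMSO controls of the experiments were not alike for every Rab gene. In the DMSO library 3 members lay at least 2-fold above and 3 at least 2-fold below the scramble library in RPKM, with a median log2 difference of -0.23. RAB38, which acts in the biogenesis of lysosome-related organelles, was at 11.1 RPKM with scramble and 1.74 with DMSO, RAB27B at 1.44 and 0.503, and RAB1A at 49.5 and 23.1. RAB15, RAB3A and RAB13 lay the other way, RAB15 at 1.53 RPKM with scramble and 7.13 with DMSO. The hairpin vector, the culture and the sequencing run cannot be told apart as sources of these differences, so each treated library is compared with its own control.

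CDK16 knockdown was compared first to ask which Rab genes moved with either hairpin. On the log2 scale of CPM after TMM scaling, with a prior count of 2, the median of the 47 members was -0.09 with CDK16-sh1 and 0.07 with CDK16-sh2, against -0.00 and 0.02 over all 15295 genes. With CDK16-sh1, 1 Rab gene was at least 2-fold lower and 0 were at least 2-fold higher, while 6.86% of all genes passed this threshold downward and 4.33% upward. With CDK16-sh2, 6 were lower (12.8%) and 1 was higher (2.13%), against 7.62% and 2.20% of all genes. Scaling by library totals shifted all genes by -0.20 with CDK16-sh2 and gave 8 Rab genes lower and 0 higher, and the higher share of all genes past the threshold went from 22.4% to 8.09%. The typical size of a change was also close to that of other genes, with a median absolute log2 change of 0.46 for Rab genes and 0.43 for all genes with CDK16-sh1, and 0.32 and 0.36 with CDK16-sh2. Of the 47 members, 16 were below the control with both hairpins, 15 were above it with both and 16 moved in opposite directions.

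Among the Rabs of regulated secretion, RAB27B lay at least 2-fold below scramble with both hairpins. It had 277 counts with scramble, 160 with CDK16-sh1 and 104 with CDK16-sh2, or -1.06 on the log2 scale with the first hairpin (interval -1.36 to -0.78) and -1.29 with the second (interval -1.65 to -0.98). Both treated libraries were thus below the control by more than counting error, and it was the only Rab gene of 47 to pass 2-fold downward in both, where 1.44% of all genes did so. The gene lies on chromosome 18 of GRCh38 from 54717860 to 54895516 on the plus strand, and 4.59% of its exonic bases are shared with a gene on the opposite strand. From RPKM plus 0.1 its value with CDK16-sh1 fell just short of the threshold, and with the trends on expression and length removed it came to -0.78. After a trend on GC content and length was removed from all genes, RAB27B was at -0.49 and -0.98, under the threshold with both hairpins, and RAB36 took its place at -1.17 with CDK16-sh1. RAB27A had 773, 673 and 575 counts and log2 fold changes of -0.48 and -0.32, which came to -0.01 and -0.09 with the trends on GC content and length removed. The ratio of RAB27A to RAB27B within a library, which does not depend on scaling, was higher than in the control by 0.59 ± 0.16 (counting SE) and 0.99 ± 0.18 on the log2 scale.

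RAB3A, a Rab of regulated exocytosis best known from synaptic vesicles, went in the opposite direction from a low level. It had 28 counts with scramble, 70 with CDK16-sh1 and 55 with CDK16-sh2. Its log2 fold change was 1.00 with CDK16-sh1 (interval 0.39 to 1.73), just under the threshold before rounding, and 1.03 with CDK16-sh2 (interval 0.40 to 1.79). In 0 Rab genes did both hairpins pass 2-fold upward, against 0.438% of all genes.

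RAB2A and RAB2B, a pair of Rabs of traffic between the endoplasmic reticulum and the Golgi, were low with CDK16-sh2 alone. RAB2A had 1541 counts with scramble, 1757 with CDK16-sh1 and 197 with CDK16-sh2, a log2 fold change of -0.09 with the first hairpin and -2.85 (interval -3.08 to -2.65) with the second. RAB2B had 366, 397 and 146 counts and log2 fold changes of -0.16 and -1.21. So the CDK16-sh1 library stayed within counting error of the control for both genes, and the CDK16-sh2 library was 7.21-fold lower for RAB2A, the largest fold change of any Rab gene in this experiment. Since RAB2A was lower by more than RAB2B, its share of the RPKM of the pair went from 72.9% with scramble and 73.9% with CDK16-sh1 to 46.3% with CDK16-sh2.

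The other members past 2-fold with CDK16-sh2 were RAB15, RAB38 and RAB36. RAB15, a Rab of endosomal recycling, had 173, 126 and 64 counts (log2 fold changes -0.72 and -1.30), and RAB36 had 86, 54 and 37 counts (-0.92 and -1.07). For these genes both treated libraries were below the control. RAB38 had 420, 438 and 179 counts (-0.22 and -1.12), so that it was low mainly with CDK16-sh2. Short of the threshold, RAB23, a Rab that acts in Hedgehog signaling and at the cilium, had 516, 373 and 268 counts (-0.74 and -0.83), and RAB12, which directs receptors from recycling endosomes to lysosomes, had 740, 653 and 347 counts (-0.46 and -0.98). With the trends on GC content and length removed RAB23 was at -0.30 with CDK16-sh1 and -0.63 with CDK16-sh2, and 57.7% of its exonic bases are shared with BAG2 on the opposite strand, so that reads of these genes may not be told apart.

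On the upper side, RAB8A and RAB13 were higher with both hairpins by less than 2-fold, while of the 6 members of their role, polarized exocytosis and the cilium, 3 were below and 3 above the control with each hairpin. RAB8A, which carries vesicles from the Golgi to the plasma membrane and the cilium, had 7816 counts with scramble, 15431 with CDK16-sh1 and 11248 with CDK16-sh2 (log2 fold changes 0.70 and 0.63). RAB13, which acts in delivery to cell junctions, had 3409, 7410 and 4001 counts (0.84 and 0.34). RAB40C, a Rab with a SOCS box that joins ubiquitin ligases, had 216, 431 and 347 counts (0.72 and 0.79), and RAB32, a Rab of lysosome-related organelles, had 563, 859 and 785 counts (0.33 and 0.58). The counting intervals of these values excluded 0, but some values depended on processing. RAB32 with CDK16-sh1 came to 0.05 with the trends on expression and length removed and to -0.03 with those on GC content and length removed, and RAB13 with CDK16-sh2 came to 0.14 with library totals and 0.13 with the trends on expression and length removed. RAB40C with CDK16-sh1 was at 0.25 with the trends on GC content and length removed. The counts of RAB8A may include other transcripts, since 37.8% of its exonic bases are shared with genes on the opposite strand and the strand setting of the counting is not given in the sources used here.

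The hairpins differed from each other for several Rab genes. CDK16-sh2 was at least 2-fold below CDK16-sh1 for 3 members and above it for 1, against 8.68% and 6.53% of all genes. The lower ones were RAB2A at -2.76, RAB24 at -1.08 and RAB2B at -1.05, and RAB7A was higher at 1.29. For RAB7A the libraries lay on opposite sides of the control, with 9907 counts for scramble, 8284 for CDK16-sh1 (log2 fold change -0.53) and 15507 for CDK16-sh2 (0.75). RAB24, an atypical Rab linked to autophagy, had 517, 1126 and 406 counts (0.84 and -0.24), and 44.8% of its exonic bases are shared with a gene on the same strand.

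When both hairpins were taken as 1 group against scramble with edgeR's quasi-likelihood test, which lets the difference between the hairpins stand for the spread, 0 Rab genes were called, and 0% of all genes in either direction. In this fit 0 Rab genes reached an unadjusted p-value of 0.05, the smallest being 0.0614 for RAB27B, and DESeq2 also called 0, with 0 Rab genes at an unadjusted p-value under 0.05. The fit had 1 residual degree of freedom.

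**Figure D2:**
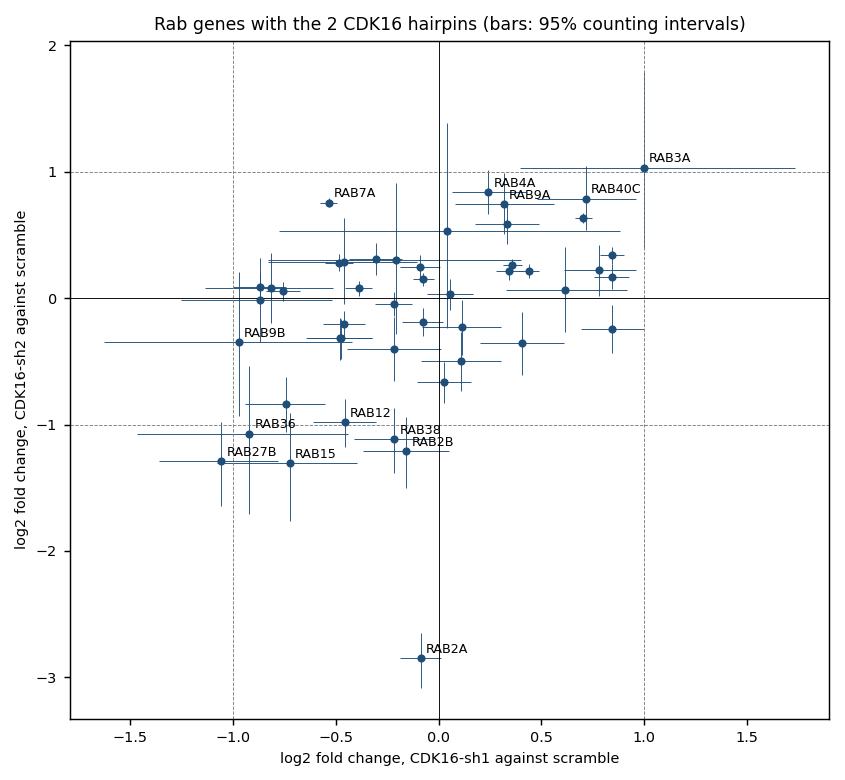
Log2 fold change of the 47 Rab genes with CDK16-sh1 (x axis) and CDK16-sh2 (y axis) against the shared scramble library, with bars for 95% counting intervals and dashed lines at 2-fold. RAB27B lies at -1.06 and -1.29, RAB2A at -0.09 and -2.85, and RAB7A lies on the upper left at -0.53 and 0.75.

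Reb was compared next, by dose. At 1 μM the Rab genes stayed close to DMSO, with a median log2 fold change of 0.08 against 0.00 for all 15655 genes and a median absolute change of 0.22 against 0.23. Past 2-fold lay 1 of 47 members (2.13%) in each direction, where 1.92% of all genes were lower and 1.28% higher. The lower one was RAB4B, a Rab of fast recycling, with 160 counts with DMSO, 69 with 1 μM and 79 with 5 μM Reb (log2 fold changes -1.21 and 0.09), of whose exonic bases 20.3% are shared with genes on the same strand. The higher one was RAB17, a Rab of epithelial transcytosis, with 45, 135 and 2 counts, whose value of 1.51 (interval 1.06 to 2.08) at 1 μM stood beside an interval of -6.47 to -1.45 at 5 μM. From RPKM plus 0.1 RAB4B fell just short of the threshold. RAB27B had 188, 306 and 134 counts and was above DMSO by 0.67 (interval 0.41 to 0.95) at 1 μM and by 0.61 (interval 0.29 to 0.95) at 5 μM, but with scaling by library totals the second value was -0.07.

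At 5 μM the Rab genes spread widely in both directions, from -3.50 for RAB5B to 4.02 for RAB30. Of the 47 members, 10 (21.3%) were at least 2-fold lower and 15 (31.9%) at least 2-fold higher, against 27.2% and 23.6% of all genes. The median was 0.16 against -0.07 for all genes, and the median absolute change was 1.03 against 1.02. These counts depend on scaling. With library totals in place of TMM the values of all genes shifted by -0.69, and 15 Rab genes were lower and 12 higher, with a median of -0.53. Of all genes past 2-fold the higher ones made up 46.5% with TMM and 21.3% with library totals. The 12 were the same Rab genes as before without RAB11A, RAB12 and RAB22A, and the additional members on the lower side were RAB5A, RAB10, RAB11B, RAB13 and RAB15.

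Compared directly, 5 μM was at least 2-fold below 1 μM Reb for 9 and above it for 16 Rab genes, against 25.8% and 22.8% of all genes. In 0 Rab genes did both doses pass 2-fold in the same direction, where 1.08% of all genes were lower and 0.645% higher at both. Of the 47 members, 12 were below DMSO at both doses, 21 above it at both and 14 on opposite sides.

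The early endosomal Rabs held the lowest value. Of the 8 compared, 3 were at least 2-fold lower and 2 higher at 5 μM, beside 27.2% of all genes lower and 23.6% higher. RAB5B, a paralog of the RAB5 genes that drive fusion of early endosomes, had 2074 counts with DMSO, 1665 with 1 μM and 84 with 5 μM Reb, with log2 fold changes of -0.34 and -3.50 (interval -3.85 to -3.20). Its paralogs stayed within 2-fold, RAB5A with 4068, 3805 and 1441 counts (-0.12 and -0.39) and RAB5C with 8648, 8054 and 3931 counts (-0.13 and -0.03). Only the 5 μM library of RAB5B was far from the others, and the log2 ratio of its counts to those of RAB5C changed by -3.49 ± 0.16 (counting SE). RAB31, which links the Golgi to endosomes, had 1017, 936 and 116 counts (-0.14 and -2.01), and RAB17, with 2 counts at 5 μM, was at -2.82 there. In the opposite direction, RAB21, which acts in integrin endocytosis, had 2033, 2027 and 4941 counts (-0.03 and 2.39), and RAB22A had 2486, 2538 and 2333 counts (0.01 and 1.02), the latter with no more counts at 5 μM than with DMSO.

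The Golgi Rabs held the highest values. RAB30 had 484 counts with DMSO, 796 with 1 μM and 3665 with 5 μM Reb, and lay above DMSO by 0.69 at 1 μM (interval 0.53 to 0.86) and by 4.02 at 5 μM (interval 3.89 to 4.17) on the log2 scale. RAB33B, which also binds the autophagy protein ATG16L1, had 233, 315 and 1750 counts (0.41 and 4.00). Both genes stood above the control at both doses. RAB18, which sits on the endoplasmic reticulum and lipid droplets, had 3239, 4063 and 7508 counts (0.30 and 2.32), and RAB2A, the gene that was low with CDK16-sh2, had 2108, 1866 and 3302 counts (-0.20 and 1.75). RAB36 had 113, 98 and 4 counts (-0.22 and -3.39, interval -5.61 to -2.32) and RAB43 had 664, 458 and 131 counts (-0.56 and -1.23), where 79.3% of the exonic bases of RAB43 are shared with genes on the same strand. With the 12 members of this role, 4 were at least 2-fold higher and 2 lower at 5 μM, beside 23.6% of all genes higher and 27.2% lower.

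Of the 8 Rabs of late endosomes, lysosomes and autophagy compared, 4 were at least 2-fold higher and 3 lower at 5 μM. Of all genes 23.6% were higher and 27.2% lower. RAB38 had 128, 186 and 586 counts (0.51 and 3.28), RAB9A, which returns mannose 6-phosphate receptors to the Golgi, had 888, 1074 and 2081 counts (0.25 and 2.33), and RAB7A had 27790, 26970 and 42466 counts (-0.07 and 1.72). These genes had their highest count at 5 μM in spite of the smaller library. RAB9B had 80, 163 and 14 counts (0.98 and -1.34), RAB24 had 797, 623 and 105 counts (-0.38 and -1.81), and RAB29, a partner of the kinase LRRK2, had 762, 819 and 123 counts (0.08 and -1.51). RAB12 had 1447, 1651 and 1369 counts (0.17 and 1.03), close to the threshold.

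Of the 7 recycling Rabs compared, 3 were at least 2-fold higher and 0 lower at 5 μM with TMM. Of all genes 23.6% were higher and 27.2% lower. RAB14, which acts between the Golgi and endosomes, had 1709, 1753 and 5402 counts (0.01 and 2.77), RAB4A had 1274, 1563 and 2887 counts (0.27 and 2.29) and RAB11A had 3854, 4289 and 3996 counts (0.13 and 1.16). The first 2 had clearly more counts at 5 μM than in the other libraries, whereas RAB11A did not. RAB11B had 5546, 4604 and 1447 counts (-0.29 and -0.83) and RAB15 had 1571, 2221 and 407 counts (0.48 and -0.84). With library totals at 5 μM, RAB11B at -1.52 and RAB15 at -1.53 were past 2-fold lower, and RAB11A was at 0.47. Of the 6 Rabs of polarized exocytosis and the cilium, 2 were at least 2-fold higher and 1 lower at 5 μM. RAB23 had 1043, 1735 and 1789 counts (0.71 and 1.88). RAB13 had 14024, 10030 and 4082 counts (-0.51 and -0.67) and was at -1.36 with library totals at 5 μM. Among Rabs of regulated secretion, RAB3A had 164, 147 and 34 counts (-0.18 and -1.14), and RAB27A with 1309, 1503 and 614 counts stayed near DMSO (0.18 and 0.02).

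**Figure D3:**
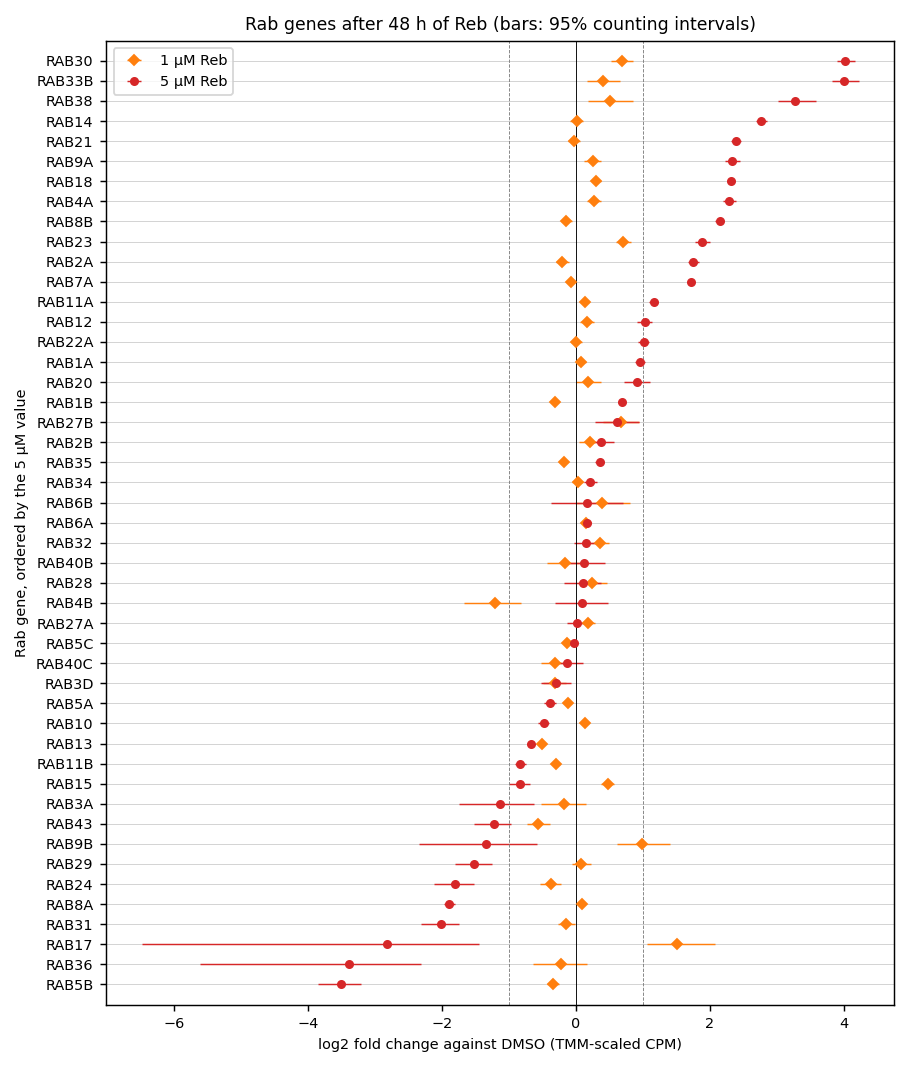
Log2 fold change of the 47 Rab genes against DMSO after 48 h of 1 μM or 5 μM Reb, ordered by the 5 μM value, with bars for 95% counting intervals and dashed lines at 2-fold. The 1 μM points lie between -1.21 and 1.51 and the 5 μM points between -3.50 and 4.02, with wide bars for RAB17 and RAB36, which had 2 and 4 counts at 5 μM.

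RAB8A and RAB8B are close paralogs of the same exocytic step, and which of them was the more abundant was reversed at 5 μM Reb. RAB8A had 11181 counts with DMSO, 12106 with 1 μM and 1401 with 5 μM Reb (log2 fold changes 0.09 and -1.89), while RAB8B had 2687, 2478 and 5526 counts (-0.14 and 2.15). RAB8A made up 80.7% of the RPKM of the pair with DMSO, 83.0% with 1 μM and 20.3% with 5 μM Reb. The log2 ratio of their counts changed by -4.04 ± 0.05 (counting SE) at 5 μM and by 0.23 ± 0.04 at 1 μM. With the hairpins the pair moved the other way, the ratio being higher by 0.68 ± 0.07 and 1.30 ± 0.08. The transcripts differ in GC content, at 54.1% for RAB8A and 36.2% for RAB8B. With the trends on GC content and length removed RAB8A and RAB8B came to nearly the same value with CDK16-sh1, 0.60 and 0.53, and to 0.63 and -0.42 with CDK16-sh2, while at 5 μM Reb they were at -1.35 and 1.66.

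Such ratios within a library do not depend on how libraries are scaled. Of 13 pairs of Rab paralogs in the Reb experiment, 7 changed their ratio by at least 2-fold at 5 μM and 1 at 1 μM, and of 15 pairs in the knockdown experiment 2 did so with CDK16-sh1 and 3 with CDK16-sh2. The median absolute change of the log2 ratio was 1.38 at 5 μM and 0.25 at 1 μM Reb. Ratios of other gene pairs were not computed, so these counts have no background share. For single genes the median absolute log2 change over all genes was 1.02 at 5 μM and 0.23 at 1 μM. The RAB5 pairs, and the RAB40 pairs of the knockdown, share members and so are not independent. RAB9A gained on RAB9B by 3.74 ± 0.42 at 5 μM, RAB4A on RAB4B by 2.20 ± 0.20, RAB11A on RAB11B by 1.99 ± 0.05 and RAB2A on RAB2B by 1.38 ± 0.10. RAB11A thereby went from 23.2% of the RPKM of its pair with DMSO to 54.6% at 5 μM. The pairs RAB1A and RAB1B, RAB6A and RAB6B, RAB40B and RAB40C, and RAB5A and RAB5C kept their ratios within a log2 change of 0.40 at both doses.

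**Figure D4:**
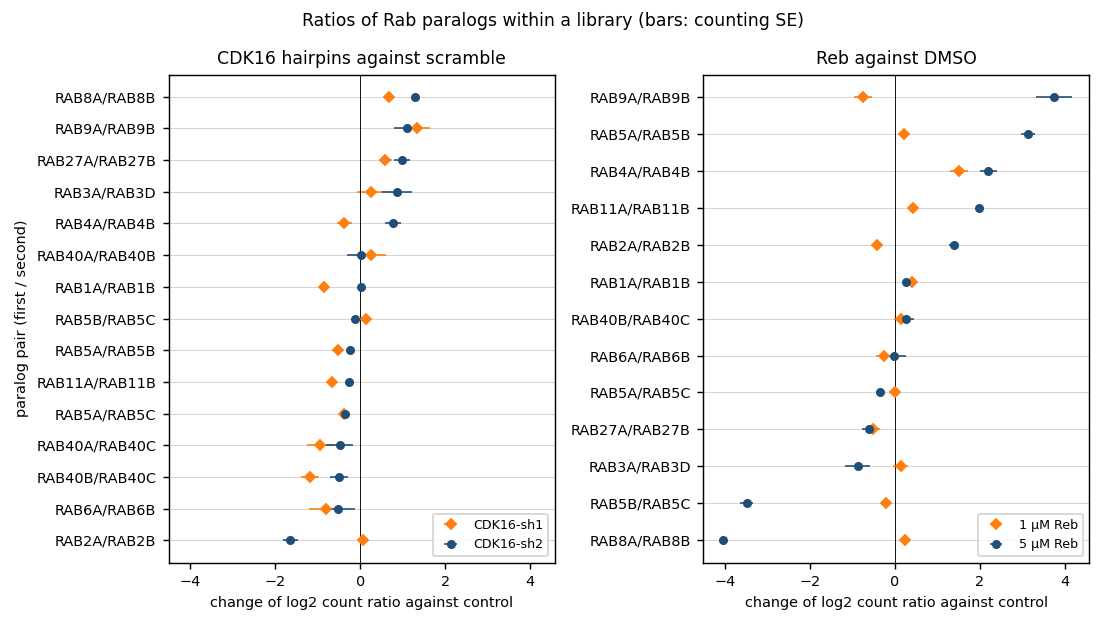
Change of the log2 count ratio of Rab paralogs within a library, treated minus control, for the hairpins (left) and Reb (right), with bars for the counting SE. At 5 μM Reb the pairs run from -4.04 for RAB8A and RAB8B to 3.74 for RAB9A and RAB9B.

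The sequences before the transcription start of the RAB8 pair and of the Rab genes with the lowest and the highest value at 5 μM Reb are shown so that the promoters of genes that moved apart can be compared. They are the 250 bases upstream of the RefSeq start on GRCh38.p14, in the direction of transcription, at chr19:16111639-16111888 (plus strand) for RAB8A, chr15:63189356-63189605 (plus strand) for RAB8B, chr12:55973699-55973948 (plus strand) for RAB5B, and chr11:83071898-83072147 (minus strand) for RAB30. The genes as counted begin further upstream than the RefSeq start. They begin at 16111629 for RAB8A, 63189469 for RAB8B, 55973913 for RAB5B and 83071923 for RAB30. The RAB8A window thus lies inside the span of the counted gene, and the other windows overlap its beginning. Capitals mark a CCAAT box (CCAAT) or a GC box (GGGCGG), read on both strands.
RAB8A: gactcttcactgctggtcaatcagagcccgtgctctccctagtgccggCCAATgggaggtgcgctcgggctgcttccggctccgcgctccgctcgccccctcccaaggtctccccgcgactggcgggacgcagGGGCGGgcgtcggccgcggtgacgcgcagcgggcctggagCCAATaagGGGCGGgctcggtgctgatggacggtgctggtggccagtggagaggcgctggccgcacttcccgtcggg
RAB8B: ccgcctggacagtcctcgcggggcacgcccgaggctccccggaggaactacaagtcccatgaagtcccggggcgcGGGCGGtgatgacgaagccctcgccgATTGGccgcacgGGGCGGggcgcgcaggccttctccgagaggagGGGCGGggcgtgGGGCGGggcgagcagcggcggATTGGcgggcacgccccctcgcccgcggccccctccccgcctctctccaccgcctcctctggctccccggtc
RAB5B: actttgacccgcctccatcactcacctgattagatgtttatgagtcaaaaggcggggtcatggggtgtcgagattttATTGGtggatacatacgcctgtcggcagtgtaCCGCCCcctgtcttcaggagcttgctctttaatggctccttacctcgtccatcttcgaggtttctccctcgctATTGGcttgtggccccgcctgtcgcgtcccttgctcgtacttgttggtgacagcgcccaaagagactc
RAB30: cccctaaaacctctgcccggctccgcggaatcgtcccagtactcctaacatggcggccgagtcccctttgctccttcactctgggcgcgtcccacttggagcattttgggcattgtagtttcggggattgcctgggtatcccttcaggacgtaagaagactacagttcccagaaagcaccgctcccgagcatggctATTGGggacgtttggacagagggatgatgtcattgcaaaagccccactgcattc

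All of these windows hold a CCAAT box on a strand, and those of RAB8A, RAB8B and RAB5B hold a GC box, which the window of RAB30 does not. The RAB8A and RAB8B windows are both rich in GC, at 72.4% and 77.2%, with 28 and 33 CpG dinucleotides, and the genes lay on opposite sides of DMSO at 5 μM Reb. Of the 47 Rab genes compared in the Reb experiment 39 matched a RefSeq window, and 34 of these (87.2%) held a GC box, against 42.3% of all 27305 windows of the same length. A CCAAT box was in 28.2% against 33.0% of all windows, a TATA box (TATAAA) in 0 of the 39 against 11.1%, and an E box (CACGTG) in 12.8% against 6.49%. The window of RAB40A, compared only in the knockdown, is not among the 39 and holds a TATA box and no GC box. A GC box was in 10 of 11 windows of genes at least 2-fold higher at 5 μM and in 7 of 9 windows of those lower. The median GC content was 66.8% in the Rab windows and 58% in all windows. The set of all windows was not filtered on expression, whereas the Rab windows are those of genes that reached 1 CPM. Shares over the genes tested were not computed, so a difference tied to expression cannot be told apart from one of Rab genes.

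The GC content of the transcripts went along with the fold changes. Across the 47 Rab genes, which share their libraries and differ in length and level, Pearson's r between the GC content of the longest GENCODE transcript and the log2 fold change was 0.51 with CDK16-sh1 and 0.27 with CDK16-sh2, and -0.37 and -0.52 with 1 μM and 5 μM Reb. Over all genes tested with a known GC content the same values were 0.48, 0.13, -0.30 and -0.22. At 5 μM Reb, 12 of 22 Rab genes with a GC content under 45% were at least 2-fold higher and 2 lower, while 3 of the 25 others were higher and 8 lower. Over all genes, 1574 of 5020 with a GC content under 45% were at least 2-fold higher and 950 lower, and 1450 of the 8182 others were higher and 2693 lower. With a trend on GC content and length removed from all genes, an alternative added after the data had been seen, 9 Rab genes were lower and 12 higher at 5 μM, RAB30 was at 3.60, RAB33B at 3.63, RAB5B at -3.36 and RAB8A at -1.35. The genes that no longer passed 2-fold were RAB11A, RAB12, RAB22A and RAB43.

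**Figure D5:**
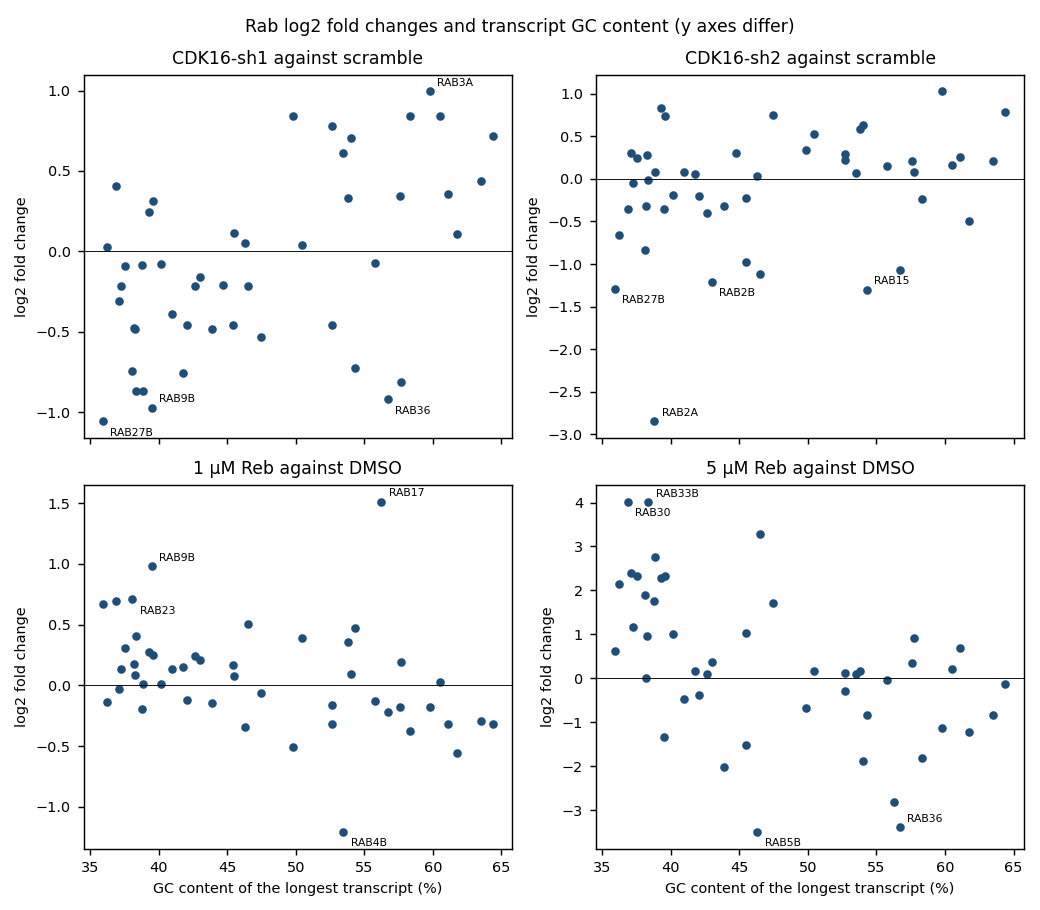
Log2 fold change of the 47 Rab genes against the GC content of their longest transcript, in 1 panel for each treated library, with y axes that differ. The cloud rises with GC content with CDK16-sh1 (r = 0.51) and falls with 5 μM Reb (r = -0.52), where RAB30, RAB33B and RAB5B are among the labelled points.

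With both doses as 1 group, edgeR's quasi-likelihood test called 0 Rab genes, and 0.00639% of all genes lower and 0.0703% higher. RAB30 and RAB33B had an unadjusted p-value under 0.05 in this fit, the smallest being 0.0205 for RAB33B, and DESeq2 called 0 with 3 Rab genes at an unadjusted p-value under 0.05. With dose as a linear term, edgeR called 12 Rab genes higher and 5 lower after adjustment, against 13.3% of all genes higher and 11.1% lower. Both fits had 1 residual degree of freedom. The first took the doses as replicates of each other. The second was linear in log2 of the dose in μM plus 1, not in the dose itself. It placed the 1 μM library between the DMSO and the 5 μM library. Its spread came from how far the libraries lay from that line and not from replicates. Its calls therefore do not measure variation between cultures of the same dose.

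The genes that load, switch and read Rab proteins were counted from a list of 152 symbols, of which 140 were compared in each experiment. With CDK16-sh1, 12 (8.57%) were at least 2-fold lower and 3 (2.14%) higher, beside 6.86% and 4.33% of all genes. With CDK16-sh2, 9 (6.43%) were lower and 4 (2.86%) higher, beside 7.62% and 2.20% of all genes. Library totals gave 14 lower and 3 higher with CDK16-sh1, and 13 and 2 with CDK16-sh2. Among those with a mean of at least 5 CPM, DENND6A and EVI5L were past 2-fold with both hairpins. DENND6A, a GEF of RAB14, had 705, 349 and 132 counts (log2 fold changes -1.29 and -2.29). EVI5L, a GAP, had 1343, 3962 and 3108 counts (1.28 and 1.32). Of all genes compared, 1.44% were lower and 0.438% higher with both hairpins. With 1 μM Reb 0 were lower and 1 was higher, beside 1.92% and 1.28% of all genes. At 5 μM Reb 49 (35%) were lower and 23 (16.4%) higher, beside 27.2% and 23.6% of all genes. Among them the effectors gave 24 lower (45.3%) and 5 higher (9.43%) of 53, with a median of -0.75 against -0.07 for all genes, and the GEFs gave 14 lower and 12 higher of 45. With library totals 73 of the 140 were lower and 7 higher, and the effectors gave 32 lower (60.4%) and 3 higher with a median of -1.44, where 43.4% of all genes were lower, 11.7% were higher and the median was -0.75. Of the 140, 0 were past 2-fold in the same direction with both doses, beside 1.08% of all genes lower and 0.645% higher.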

How the data were processed

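Messenger RNA of 6 MDA-MB-231 cultures was measured by RNA-seq of stranded libraries. Submitters' processing notes name Trimmomatic, featureCounts, Subread 1.5.1 and GRCh38, while an aligner for the reads and the strand setting are not given in the sources used here. The authors deposited 1 count table for each experiment, with whole-number counts per gene symbol and no normalization. The deposited RPKM tables of the authors hold those counts divided by gene length and library total, so levels between genes were compared in RPKM and changes were computed from counts.

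Genes were kept from a mean of 1 CPM upward, and log2 fold changes of TMM-scaled CPM with a prior count of 2 were computed with edgeR 4.0.16 in R 4.3.3. The pooled fits used the quasi-likelihood test of edgeR, with p-values adjusted by Benjamini and Hochberg over all genes tested and called at 0.05 and 2-fold, with DESeq2 1.42.0 as an alternative. The fold changes and the edgeR fit with both treated libraries as 1 group were run on simulated counts. There both treated libraries shared the same changes. The hairpins and the doses differed from each other, so the simulated counts do not show how that fit performs on these libraries. Reads carry no molecular identifiers, so intervals cover counting error only, and at most 3 counts were taken as the floor.

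GC content came from GENCODE 29 and was known for 84.6% and 84.3% of the genes tested. Shared exons came from the exon coordinates deposited with the counts, and promoter windows from RefSeq. The Rab genes, their roles and the list of 152 pathway genes were chosen with earlier results of these data known. Named were RAB27A and RAB27B, members past 2-fold, the 5 largest falls and rises shared by both treated libraries, and the 10 with the highest mean RPKM. Of the pathway list, those with a mean of 5 CPM or more that passed 2-fold in the same direction in both treated libraries were named. Other genes named, such as paralogs of a named gene, those that differ between the controls, those below 1 CPM and RAB24 with the hairpins, were chosen after their values had been seen.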

Additional observations from a re-analysis of the deposited data

Results flagged for a closer look

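RAB17 was at least 2-fold from DMSO on opposite sides at the 2 doses of Reb, above it at 1 μM and below it at 5 μM. The log2 difference between 5 μM and 1 μM was -4.33. It rests on 45, 135 and 2 counts in the DMSO, 1 μM and 5 μM libraries, and since each dose had 1 library the difference was not tested. RAB17 had a mean under 5 CPM and dropped out when that minimum was set.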

How the results depend on the processing

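Of the counts, medians and fits set against an alternative, 136 stayed within 1.5 times the main count, or within the interval of the median, and 35 moved. None changed sign past 2-fold. DESeq2 size factors and DESeq2 moved none of them. Scaling by library totals gave 2 Rab genes lower with CDK16-sh1, 0 higher with CDK16-sh2, 2 higher at 1 μM, 14 lower at 5 μM against 1 μM, and a median of -0.53 at 5 μM. RPKM plus 0.1 gave 0 lower with CDK16-sh1, 0 higher with CDK16-sh2, 0 lower with both hairpins, 0 lower at 1 μM, 14 lower at 5 μM against 1 μM, and a median of -0.50 at 5 μM. With no filter on low counts, which adds Rab genes with few counts (62 and 64 entered), there were 2 lower and 4 higher with CDK16-sh1, 10 lower and 3 higher with CDK16-sh2, 7 lower and 2 higher for CDK16-sh2 against CDK16-sh1, 2 lower and 1 higher with both hairpins, and 2 lower and 2 higher at 1 μM. A minimum of 5 CPM, which leaves 39 Rab genes in each experiment, gave 0 higher with CDK16-sh2, 0 lower and 0 higher at 1 μM, and 6 lower at 5 μM. A prior count of 0.5 gave 2 lower and 1 higher with CDK16-sh1, and 1 higher with both hairpins. With trends on expression and length removed, CDK16-sh2 against CDK16-sh1 had 1 lower and 2 higher, and both hairpins 0 lower. With trends on GC content and length removed, an alternative chosen after seeing the data, there were 2 lower with CDK16-sh1, 0 higher with CDK16-sh2 and 2 higher for CDK16-sh2 against CDK16-sh1. The single Rab gene lower with both hairpins was then RAB36 in place of RAB27B. Dose as a linear term called 17 Rab genes, where both doses as 1 group gave 0. Where no construction is named, the cause was not tested.

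No paired analysis was possible because each condition had 1 library, and for the same reason no library could be left out. Rab genes with few counts are limited by depth, and the interval of RAB17 at 5 μM, from -6.47 to -1.45, shows how far.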

Other observations

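Some Rab genes below the level needed for a comparison still had counts in most libraries. RAB3B, a secretory paralog of RAB3A, had 54, 70 and 12 counts with DMSO, 1 μM and 5 μM Reb, and 3, 8 and 2 with scramble, CDK16-sh1 and CDK16-sh2. RAB42 had 51, 54 and 14 counts in the Reb experiment and 13, 16 and 10 in the knockdown experiment. RAB26, a Rab of secretory granules, was at 40, 34 and 40 counts in the Reb experiment but at 0 in the scramble library, with 11 and 6 counts in the hairpin libraries, where 3 counts are the floor. RAB37 had 15, 46 and 13 counts in the knockdown experiment and 16, 35 and 12 with DMSO, 1 μM and 5 μM Reb. RAB25, an epithelial member of the RAB11 family, had at most 3 counts in any library.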
